A study of Mus musculus with 10 samples.

Results

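Described here are 10 genes of the NF-kB machinery, the subunits *Nfkb1*, *Nfkb2*, *Rel*, *Rela* and *Relb*, the kinase genes *Chuk*, *Ikbkb* and *Ikbkg*, and the inhibitors *Nfkbia* and *Tnfaip3*. They were chosen by name for their role, and all 10 have a probe among the 770 gene probes measured. NF-kB is a family of transcription factors that many receptors of innate and adaptive immunity switch on. Its subunits bind DNA in pairs and are held in the cytoplasm by inhibitor proteins until a kinase complex marks the inhibitor for destruction. The freed subunits then enter the nucleus and drive genes of inflammation, among them some of their own inhibitors, so that the response shuts itself down.

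RNA was measured in 10 subcutaneous YUMMER1.7 tumors, 5 from WT mice and 5 from Siah2 KO (Siah2-/-) mice. YUMMER1.7 is a mouse melanoma line with many mutations, made from tumors of a genetically engineered mouse. All mice were male and of C57BL/6 background, 6 to 10 weeks old according to the methods and 5 to 7 weeks old in the legend of the growth experiment. The knockout of Siah2, a ubiquitin ligase, was that of the host, while the injected cells were the same in both groups, so that a tumor of a Siah2 KO mouse was a mixture of host cells that lacked the gene and injected cells that were not knocked out. The labels name no drug. Tumors were taken on day 11 according to the sample labels and on day 10 according to the legend. The text for the whole series names Yumm1.5 cells and Rnf5-/- mice, whereas the labels of all 10 samples name YUMMER1.7 and Siah2, which were used. From each tumor 100 ng of RNA was hybridized to the NanoString PanCancer Immune Profiling panel, which counts barcoded probes without amplification. The panel holds no probe for *Siah2*, so the deleted gene could not be checked, and 2 of 9 melanoma markers, *S100b* and *Mcam*, neither of them a pigment gene. The values are normalized counts, scaled by the authors to 20 reference genes. Their sum over the 770 probes ranged from 512955 to 585366 in WT tumors and from 575773 to 741789 in Siah2 KO tumors. All 10 genes lay far above background, the lowest of their values being 133 normalized counts, while no negative control probe exceeded 10.7. The labels do not say how the tumors were split over cartridges or days, and p-values measure the spread between these tumors only.

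Of the 10 genes, 3 were higher in Siah2 KO tumors and 0 were lower at an adjusted p under 0.05 (limma on log2(value + 1), adjusted over all 770 probes by the Benjamini-Hochberg method). These were the inhibitor *Tnfaip3* and the kinase genes *Ikbkg* and *Chuk*. None of the 5 subunits passed. Among all probes 41.0% passed in either direction and 31.3% were higher, so that the share of the 10 genes was no larger than that of the panel. Their median log2 fold change was 0.16, against 0.24 for all probes, and it was −0.10 with the tumors set to equal medians of the endogenous probes (median scaling) and −0.14 with quantile normalization. At an unadjusted p under 0.05 the count was also 3 of the 10 genes, against 384 of the 770 probes. *Tnfaip3* stood apart in size, and it was the only gene of the 10 that was called higher whichever of the gene-based scalings between tumors was used.

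*Tnfaip3* (chromosome 10, 19000910 to 19015410 in GRCm38.p6) encodes A20, which edits ubiquitin chains and ends signaling from TNF and Toll-like receptors. WT replicates 2 to 6 had 133, 152, 139, 155 and 150 normalized counts. Siah2 KO replicates 1, 2, 3, 5 and 6 had 216, 267, 349, 342 and 212. Every Siah2 KO tumor lay above every WT tumor, and within the Siah2 KO group replicates 3 and 5 were high. The means were 277 ± 66.1 (SD, n = 5) in Siah2 KO and 146 ± 9.75 (SD, n = 5) in WT tumors. The log2 fold change was 0.89 (standard error 0.16, 95% interval 0.54 to 1.24, adjusted p = 0.0016 from limma), or 1.85-fold. An exact two-sided permutation test over the 252 divisions of the tumors gave p = 0.0079, the smallest that 5 against 5 tumors allow. The change ranked 108 from the top of 770 probes. Without replicates 3 and 5 of the Siah2 KO group, a setting chosen after seeing the data, it was 0.66 (adjusted p = 0.0040).

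*Nfkbia* (chromosome 12, 55489409 to 55492647), the gene of IkB alpha, the inhibitor that holds *Rela* dimers in the cytoplasm, is like *Tnfaip3* a textbook target of the factor it restrains. The 250 bases before a start of each gene are shown, since both inhibitors hold a match to the kB motif GGGNNTTTCC close to that start. They are printed 5′ to 3′ on the strand of the gene, which is the minus strand for both, from RefSeq on GRCm38.p6, with the match in capitals. In both the match is in the reverse orientation, GGAAANNCCC.
Nfkbia, chr12:55492648-55492897, minus strand: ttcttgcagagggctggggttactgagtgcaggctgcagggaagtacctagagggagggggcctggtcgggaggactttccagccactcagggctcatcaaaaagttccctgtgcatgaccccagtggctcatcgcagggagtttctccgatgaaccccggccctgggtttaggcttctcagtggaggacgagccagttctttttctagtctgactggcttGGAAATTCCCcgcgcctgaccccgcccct
Tnfaip3, chr10:19015411-19015660, minus strand: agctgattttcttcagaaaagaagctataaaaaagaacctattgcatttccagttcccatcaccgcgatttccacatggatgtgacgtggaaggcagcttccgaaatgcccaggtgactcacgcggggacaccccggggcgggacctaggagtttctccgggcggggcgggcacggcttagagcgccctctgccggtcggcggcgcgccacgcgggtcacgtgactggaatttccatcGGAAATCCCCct

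The match lay 29 to 20 bases before the start of *Nfkbia* and 12 to 3 bases before a start of *Tnfaip3*. *Tnfaip3* had windows for 2 starts, of which 1 held the motif. In windows of 300 bases, from 250 before to 50 after a start, on both strands, the motif occurred in 1.63% of 32851 RefSeq windows and for 6.54% of 566 genes of the panel. Windows were found for 7 of the 10 genes, and 4 of these held the motif: *Nfkbia*, *Tnfaip3*, *Rel* and *Nfkb2*. The windows of *Rela*, *Chuk* and *Ikbkg* did not hold these letters. The matches of the subunit genes are shown with 10 bases on each side, again on the strand of the gene.
Rel, chr11:23771041-23771070, minus strand: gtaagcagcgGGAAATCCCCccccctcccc
Nfkb2, chr19:46304716-46304745, plus strand: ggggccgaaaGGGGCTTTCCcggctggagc
Nfkb2, chr19:46305695-46305724, plus strand: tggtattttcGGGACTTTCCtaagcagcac

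Among the 4 genes with a match, *Tnfaip3* alone was called higher, by 0.89 on the log2 scale, where 31.3% of all probes were higher. The log2 fold change was 0.24 for *Nfkbia*, 0.16 for *Rel* and −0.15 for *Nfkb2*, and none of these 3 passed the test. Whether the 4 genes differed from each other in their change was not tested. *Nfkbia* had 199, 245, 196, 200 and 183 normalized counts in WT replicates 2 to 6. Siah2 KO replicates 1, 2, 3, 5 and 6 had 198, 206, 323, 317 and 192. Replicates 3 and 5 lay above all WT tumors, and the other Siah2 KO tumors lay within the WT range. The 95% interval of the log2 fold change of *Nfkbia* ran from −0.15 to 0.63 (adjusted p = 0.30, limma). Without replicates 3 and 5 the value for *Nfkbia* was −0.035.

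**Figure D1:**
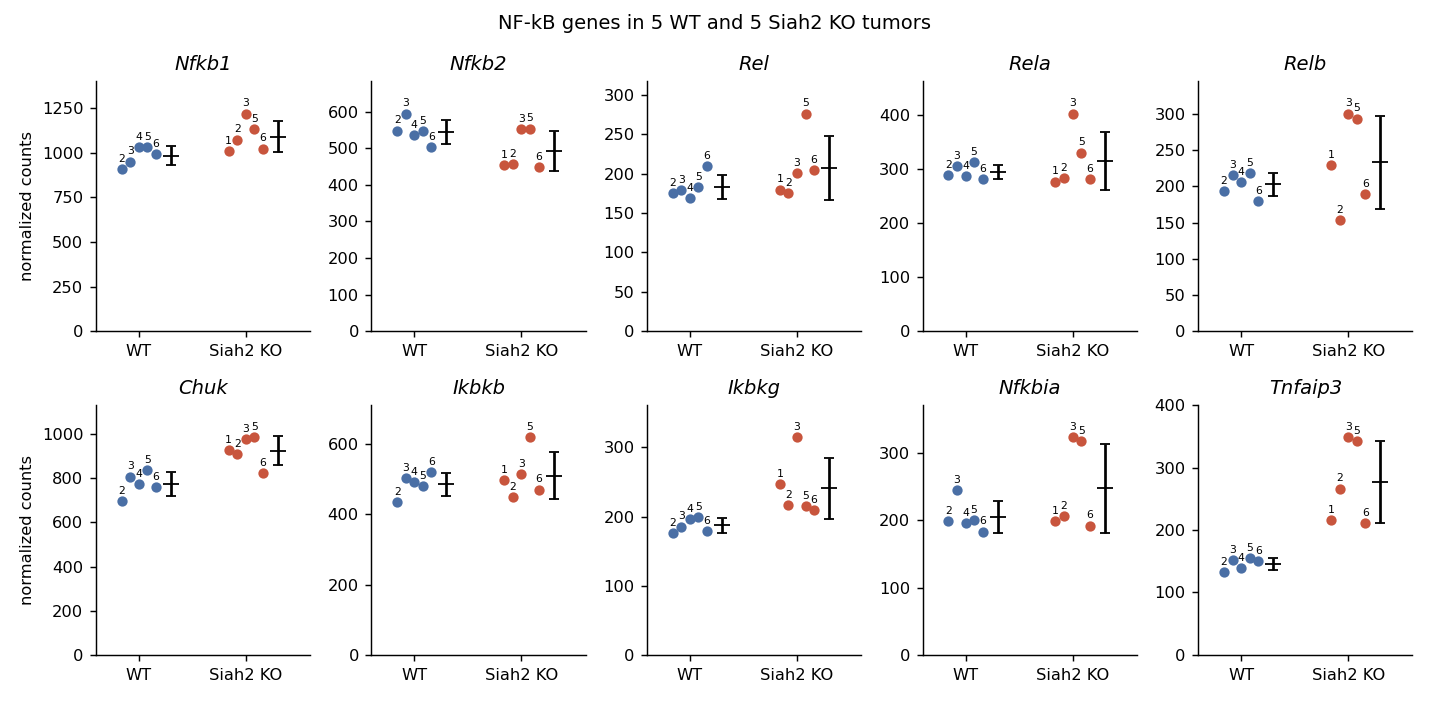
Normalized counts (vertical axes, from 0, on a scale of their own for each gene) of the 10 NF-kB genes in 5 WT and 5 Siah2 KO tumors. Each point is a tumor with its replicate number, and the bar at the side is the mean with its SD. Every Siah2 KO tumor lies above every WT tumor for Tnfaip3 and Ikbkg only, and Siah2 KO replicates 3 and 5 are the highest for most genes.

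The kinase complex is made of the catalytic subunits IKK alpha (*Chuk*, chromosome 19, 44073334 to 44107505) and IKK beta (*Ikbkb*, chromosome 8, 22659205 to 22706589) and the scaffold NEMO (*Ikbkg*, chromosome X, 74393233 to 74456792). Transcripts of the scaffold and of IKK alpha were higher in Siah2 KO tumors at this scaling, by smaller amounts than *Tnfaip3*. *Ikbkg* had 176, 185, 197, 199 and 179 normalized counts in WT replicates 2 to 6. Siah2 KO replicates 1, 2, 3, 5 and 6 had 247, 217, 314, 215 and 210. The groups did not overlap, although the lowest Siah2 KO tumor exceeded the highest WT tumor by little. The log2 fold change was 0.35 (standard error 0.12, 95% interval 0.078 to 0.61, adjusted p = 0.042, limma), and the exact permutation p was 0.0079. *Tnfaip3* and *Ikbkg* were the 2 genes of the 10 whose groups did not overlap, against 31.6% of all probes.

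*Chuk* had 695, 807, 773, 838 and 760 normalized counts in WT replicates 2 to 6. Siah2 KO replicates 1, 2, 3, 5 and 6 had 926, 908, 979, 985 and 824. All but replicate 6 lay above the highest WT tumor. The log2 fold change was 0.25 (standard error 0.086, 95% interval 0.063 to 0.45, adjusted p = 0.038, limma), and the exact permutation p was 0.016. *Ikbkb* ranged from 434 to 520 in WT and from 449 to 619 in Siah2 KO tumors, with a log2 fold change of 0.064 (95% interval −0.17 to 0.29, adjusted p = 0.64). Whether the 3 kinase genes differed from each other in their change was not tested.

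Both kinase calls lay close to the threshold and depended on the scaling. When each tumor was left out in turn, *Chuk* kept an adjusted p under 0.05 in 2 of 10 fits and *Ikbkg* in 3 of 10. Their log2 fold changes stayed between 0.22 and 0.30 and between 0.25 and 0.39, and the adjusted p of neither exceeded 0.090. The calls of both genes were lost without WT replicate 2, 3, 4 or 6 or without Siah2 KO replicate 1 or 3, which left 1 gene called. *Tnfaip3* passed in 10 of 10 fits, with log2 fold changes from 0.80 to 0.98. Under median scaling in place of the reference genes, the median of all probes moved by −0.25 and the split of calls over all probes changed from 241 higher and 75 lower to 163 higher and 152 lower. Of the 10 genes, 1 was then higher and 1 lower. *Chuk* stood at −0.011 and *Ikbkg* at 0.081, neither of them called. *G6pdx*, a reference gene that lies within the span of *Ikbkg* on chromosome X, differed by 0.25 on the log2 scale with an adjusted p of 0.034 from limma. Of the 20 reference genes, 2 were called higher and 3 lower, and their log2 fold changes ran from −0.31 to 0.25.

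The subunits with transcription activation domains are *Rela* (chromosome 19, 5637442 to 5648134), *Rel* (chromosome 11, 23736847 to 23770969) and *Relb* (chromosome 7, 19606217 to 19629438), while *Nfkb1* (chromosome 3, 135584655 to 135691969) and *Nfkb2* (chromosome 19, 46300994 to 46312400) encode the precursors of p50 and p52. No subunit passed the test at the deposited scaling. *Nfkb1* ranged from 906 to 1031 normalized counts in WT and from 1008 to 1219 in Siah2 KO tumors, a log2 fold change of 0.15 (95% interval −0.038 to 0.34, adjusted p = 0.19, limma; exact permutation p = 0.048, unadjusted). *Rela* ranged from 282 to 313 in WT and from 277 to 403 in Siah2 KO tumors, a log2 fold change of 0.079 (95% interval −0.18 to 0.33, adjusted p = 0.60). *Rel* ranged from 169 to 209 in WT and from 175 to 276 in Siah2 KO tumors, a log2 fold change of 0.16 (95% interval −0.13 to 0.45, adjusted p = 0.34), which was 0.055 without Siah2 KO replicate 5. The highest value of *Rel* came from replicate 5, and that of *Rela* and *Nfkb1* from replicate 3.

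*Relb*, the partner of p52 in the alternative pathway, had 194, 216, 206, 219 and 179 normalized counts in WT replicates 2 to 6. Siah2 KO replicates 1, 2, 3, 5 and 6 had 229, 153, 301, 294 and 189. Replicate 2 was below and replicates 1, 3 and 5 were above all WT tumors, so that the group mean described few of its tumors. Its log2 fold change was 0.16 (95% interval −0.25 to 0.57, adjusted p = 0.52, limma). Without replicates 3 and 5 the value was −0.10.

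*Nfkb2* was the only gene of the 10 with a lower mean in Siah2 KO tumors at the deposited scaling. WT replicates 2 to 6 had 548, 595, 536, 546 and 503 normalized counts. Siah2 KO replicates 1, 2, 3, 5 and 6 had 454, 457, 553, 554 and 448. Replicates 3 and 5 lay within the WT range and the other 3 lay below it. The log2 fold change was −0.15 (standard error 0.096, 95% interval −0.37 to 0.063, adjusted p = 0.24, limma). The call turned with the scaling. Under median scaling *Nfkb2* was lower in every Siah2 KO tumor than in any WT tumor, from 439 to 460 against 540 to 648, a log2 fold change of −0.42 (adjusted p = 0.0025). The share of all probes whose groups did not overlap was not counted at that scaling. By quantile normalization *Nfkb2* was at −0.52 (adjusted p = 0.0011), and *Ikbkb* at −0.31 (adjusted p = 0.0067) and *Nfkb1* at −0.26 (adjusted p = 0.015) were then called lower as well, with *Tnfaip3* still higher at 0.61. Of all 770 probes, 334 were called by quantile normalization, 153 of them higher and 181 lower. With Siah2 KO replicates 3 and 5 left out, a setting chosen after seeing the data, *Nfkb2* was called lower at the deposited scaling. It was then at −0.27 (adjusted p = 0.042, limma). These were the Siah2 KO tumors within the WT range, so leaving them out lowers the Siah2 KO mean. When each tumor was left out in turn, *Nfkb2* was called in 0 of 10 fits.

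**Figure D2:**
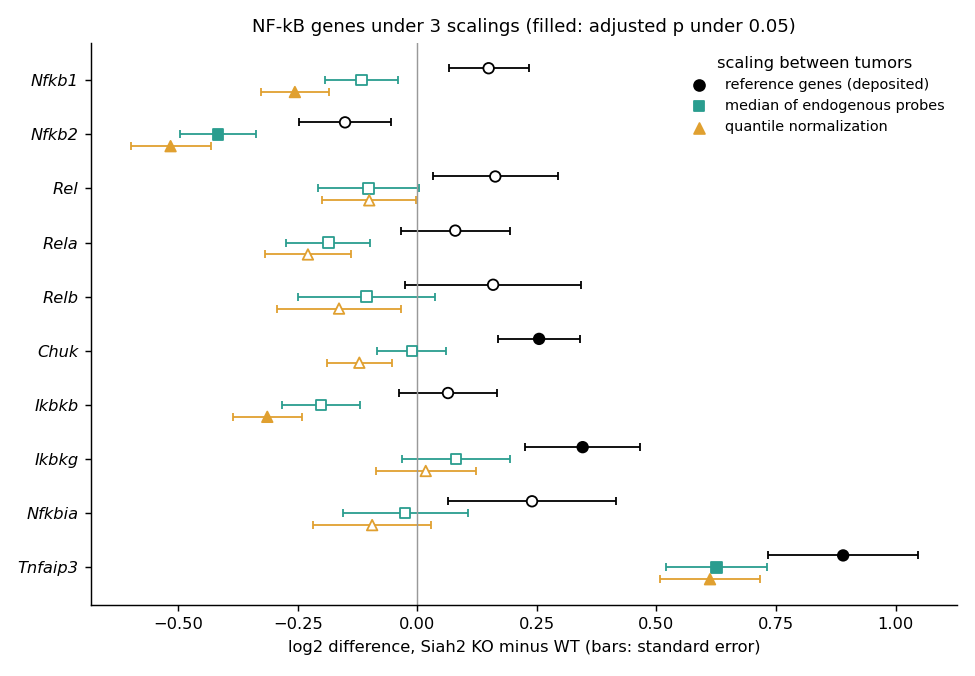
Log2 differences, Siah2 KO minus WT, of the 10 genes with their standard errors under 3 scalings between the tumors, with filled symbols at an adjusted p under 0.05. Tnfaip3 lies above 0 under each, at 0.89, 0.63 and 0.61, and Nfkb2 lies below 0 under each, at −0.15, −0.42 and −0.52, whereas Chuk, Ikbkb, Nfkbia and every subunit except Nfkb2 change sign.

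A ratio of genes within a tumor is free of a factor that multiplies all genes of that tumor alike. Each value was therefore also taken relative to *Rela*, which is not a textbook target of NF-kB. Of the other 9 genes, 1 then differed, *Tnfaip3*, against 36.5% of the 769 probes tested. Its log2 ratio to *Rela* lay between −1.12 and −0.91 in WT and between −0.41 and 0.051 in Siah2 KO tumors, a difference of 0.81 (standard error 0.12, adjusted p = 0.00042, limma; exact permutation p = 0.0079). The ratio rose in every Siah2 KO tumor above every WT tumor, replicates 1, 2 and 6 included. The ratio of *Nfkb2* lay between 0.80 and 0.95 in WT and between 0.46 and 0.74 in Siah2 KO tumors. It was lower in 5 of 5 Siah2 KO tumors than in any WT tumor, and the difference of −0.23 had an adjusted p of 0.089 from limma and an exact permutation p of 0.0079. The share of all probes whose groups did not overlap was not counted for this ratio. On normalized counts that share was 31.6%. The ratio of *Ikbkg* differed by 0.27 (adjusted p = 0.077; exact permutation p = 0.016) and that of *Nfkbia* by 0.16 (adjusted p = 0.35; exact permutation p = 0.17).

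**Figure D3:**
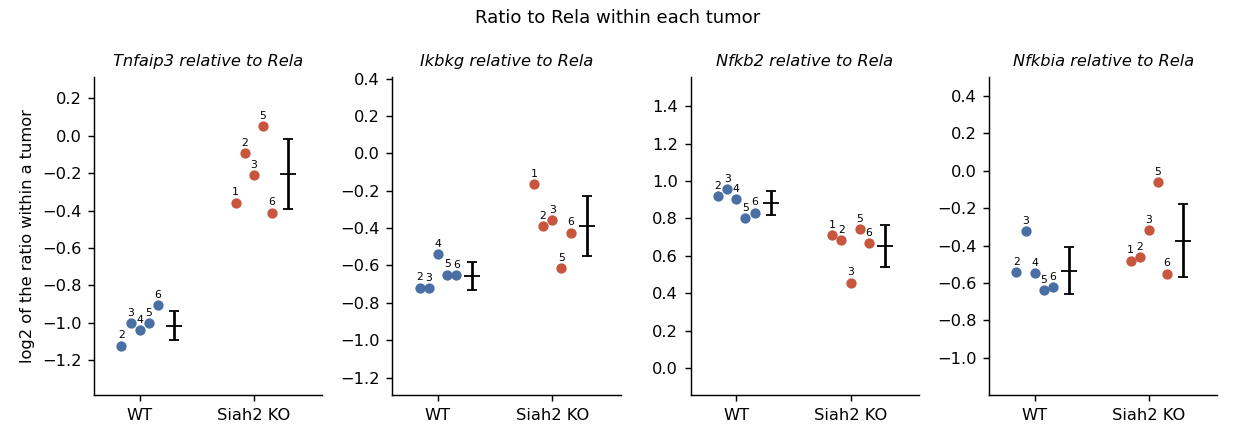
Log2 of the ratio to Rela within each tumor for Tnfaip3, Ikbkg, Nfkb2 and Nfkbia, with the same span of the vertical axis in each panel, a numbered point per tumor, and mean and SD at the side. The groups are apart for Tnfaip3, upward by 0.81, and for Nfkb2, downward by 0.23. The share of all probes whose groups are apart on this ratio was not counted.

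In bulk tumors, fewer cells of a type and less RNA per cell cannot be told apart. Leukocyte genes were higher in Siah2 KO tumors. The 8 on the panel, of which *Cd44* was the lowest with a mean of 18.4, summed to 4353 to 5323 normalized counts in WT and 6644 to 9870 in Siah2 KO tumors, 6 of them were called higher, and their median log2 value rose by 0.72 (exact permutation p = 0.0079). Relative to this median in the same tumor, 8 of the 10 NF-kB genes were lower in Siah2 KO tumors and 0 higher, where 54.0% of all probes were called and 47.3% were lower. The largest difference was that of *Nfkb2*, −0.87 (adjusted p = 0.00081, limma), and the smallest of the 8 was that of *Chuk*, −0.46 (adjusted p = 0.018). The median of the 10 genes was −0.56, against −0.48 for all probes. *Ikbkg* at −0.37 (adjusted p = 0.11) and *Tnfaip3* at 0.17 (95% interval −0.14 to 0.49, adjusted p = 0.33) were not called. With probes under a mean of 20 left out, which takes *Cd44* from the leukocyte list, *Ikbkg* was called lower at −0.51 (adjusted p = 0.030, limma). In that fit 9 of the 10 genes were called, all lower, and *Tnfaip3* stood at 0.039. Of the 602 probes in that fit, 395 were called and 357 were lower. *Tnfaip3* was the only gene of the 10 with a value above 0 on this measure. Macrophage markers moved unevenly, with 5 of 9 higher and 2 lower, and a summed level of 6887 to 8510 in WT and 7007 to 11412 in Siah2 KO tumors. The part of cell composition in the values of the 10 genes was not tested beyond these ratios.

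The spread between tumors was itself larger in the Siah2 KO group. The SD of the log2 value was larger there for 10 of 10 genes at the deposited scaling, 9 of 10 under median scaling and 9 of 9 relative to *Rela*, but for 3 of 10 relative to the leukocyte genes. *Relb* was the most variable, with an SD of 0.42 in Siah2 KO and 0.12 in WT tumors. Over all probes with a mean of at least 20 the median SD was 0.26 and 0.18. Siah2 KO replicate 3 was the highest of its group for 6 of the 10 genes and replicate 5 for 4, and each was among the highest 2 for 9 genes. The same tumors had the highest sums of normalized counts, 726023 and 741789, and the part of that sum in the spread was not tested.

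The probes most like each called gene were sought among the 601 probes with a mean of at least 20, by the root mean square difference of the log2 values after centering over the 10 tumors. The difference between the groups is part of this measure, so genes with like fold changes come out close. *Tnfaip3* was most like *Msr1* (0.10), a scavenger receptor of macrophages, *Cd68* (0.13), a lysosomal protein of macrophages, and *Cd86* (0.14), a ligand of T cell costimulation. *Chuk* was most like *Cd47* (0.050), *Ets1* (0.056) and *Psma2* (0.067). *Ikbkg* was most like *Cdkn1a* (0.071), *Il18rap* (0.096) and *Cd164* (0.10). Among the 10 genes the closest pair was *Nfkb1* and *Chuk* (0.088), and *Tnfaip3* was far from each of the other 9, at 0.35 to 0.54.

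Other genes of the pathway were counted from lists of textbook roles. Of 30 adaptors and regulators, 8 were higher and 1 lower, a share of 30% against 41.0% of all probes, and their median log2 fold change was 0.18 against 0.24. Among these were *Nod2*, a sensor of bacterial cell walls, at 1.02 (adjusted p = 0.015, limma), and *Irak2*, a kinase next to Toll-like and IL-1 receptors, at 0.82 (adjusted p = 0.00089). *Tab1*, a partner of the kinase TAK1, was lower at −0.27 (adjusted p = 0.041). Under median scaling the adaptors were split 4 higher and 4 lower, and their median was −0.085.

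Of 30 receptors, 11 were higher and 1 lower, a share of 40% that was close to the 41.0% of all probes. Their median was 0.34, which became 0.078 under median scaling with 5 higher and 4 lower. *Il1rl1*, the receptor of IL-33, rose from 573 ± 105 to 1706 ± 597 normalized counts (SD, n = 5), a log2 fold change of 1.52, *Clec7a*, a receptor of fungal glucans, by 1.33 and *Tnfrsf9*, a costimulatory receptor, by 1.07. *Tnfrsf9* was low, at 13.8 ± 5.93 in WT and 29.6 ± 11.8 in Siah2 KO tumors (SD, n = 5), and its groups overlapped. *Il1r1*, the signaling receptor of IL-1, was lower in every Siah2 KO tumor, at 495 ± 52.2 against 787 ± 66.5 (SD, n = 5), a log2 fold change of −0.67 (adjusted p = 0.00085, limma).

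Of 15 ligands, 3 were higher and 0 lower, a share of 20% against 41.0% of all probes, and their median was 0.13. The cytokine gene *Tnf* had 45.0 ± 7.01 normalized counts in WT and 133 ± 32.7 in Siah2 KO tumors (SD, n = 5), a log2 fold change of 1.52 (adjusted p = 0.00030, limma), *Il1b* by 1.51 (adjusted p = 0.00057) and *Il1a* by 1.21 (adjusted p = 0.021). These 3 were higher under median scaling too, where the median of the ligands was −0.14. *Il1a* was low, with a mean of 8.42 normalized counts in WT and 22.3 ± 12.1 (SD, n = 5) in Siah2 KO tumors. Its groups overlapped, and the size of its fold is uncertain.

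Of 39 target genes, which include 6 of the ligands and 1 of the receptors, 17 were higher and 5 lower, 56.4% against 41.0% of all probes, and the median was 0.58. Under median scaling 15 were higher and 6 lower, with a median of 0.31. The largest rises were those of *Nos2*, the inducible nitric oxide synthase, from 11.4 ± 5.94 to 220 ± 125 normalized counts (SD, n = 5), a log2 fold change of 4.09, and of the neutrophil chemokines *Cxcl3* at 2.71 and *Cxcl2* at 2.49, which had 1.94 and 2.10 normalized counts in WT tumors, close to the floor, so that their folds depend on the pseudocount. The mean of *Nos2* in WT tumors and that of *Ccl17* in Siah2 KO tumors, 9.85, were low as well, so that the size of these folds is uncertain too. Negative control probes reached 6.76 in WT and 10.7 in Siah2 KO tumors, on values that do not carry the reference gene factor. The largest falls were those of *Ccl17* at −3.46 and *Ccl22* at −1.37, ligands of CCR4, and of *Mmp9*, a matrix protease, at −1.49. The targets thus moved in both directions. Beside their median of 0.58, *Tnfaip3* stood at 0.89 and *Nfkbia* at 0.24, the latter equal to the median of all probes. The named genes of the 4 lists kept their direction under all 5 scalings tried. However, *Tab1* and *Tnfrsf9* were called under 3 of them, and *Irak2*, *Nod2*, *Il1r1* and *Il1a* under 4.

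**Figure D4:**
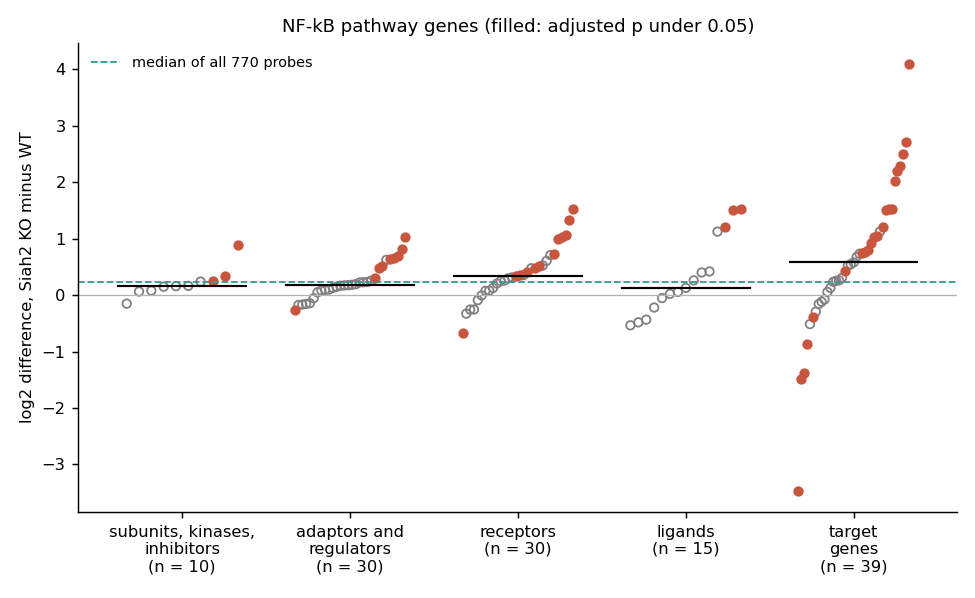
Log2 differences, Siah2 KO minus WT, of the 10 NF-kB genes and of 4 lists of pathway genes, each gene a point and filled at an adjusted p under 0.05, with the median of each list as a black line and that of all 770 probes, 0.24, as a dashed line. The target genes spread from −3.46 to 4.09, the 10 NF-kB genes from −0.15 to 0.89, and 7 genes stand in the target list and in the ligand or receptor list.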

How the data were processed

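RNA of 10 YUMMER1.7 tumors was counted on the NanoString PanCancer Immune panel. The authors deposited the signal of 784 probes as normalized counts (750 endogenous genes, 20 reference genes, 6 positive and 8 negative controls). According to their methods, quality control was done in nSolver v2.0, and each sample was scaled by its reference genes through their geometric mean. The values show that a constant was first taken from each count and results below 1 were set to 1. Before scaling the sums were 382860 to 581635 per tumor. Whole reads could not be recovered, so no count test was run. The number of tumors limits the precision.

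Groups came from the sample labels. log2(value + 1) of 770 probes was fitted with lmFit and eBayes of limma 3.58.1 (R 4.3.3), two-sided, with Benjamini-Hochberg adjustment, and 95% intervals from the same fit. Single values were tested by exact permutation over 252 divisions. Values relative to leukocyte genes or *Rela* were made by subtracting the tumor's own median or value. The steps were tested on simulated data. Tables and plots were made with Python 3.11.15, numpy 2.4.6, pandas 2.3.3 and matplotlib 3.10.9.

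The 10 genes, the lists, the tests and the alternatives were chosen with earlier results of these data known. Genes named are the 10, from each pathway list, of the genes called, the 3 with the highest and the 3 with the lowest log2 fold change, and the 3 probes most like each called gene. A gene of the adaptor list that this rule names is not reported here. *G6pdx*, named for its position, and *S100b*, *Mcam* and *Cd44*, from the marker lists, were named outside this rule. The alternatives were 4 other scalings, a filter and a floor at 20, a pseudocount of 10, endogenous probes only, the equal-variance test of the methods, an intensity trend, the replicate number as a block, each tumor left out, *Ptprc* for the leukocyte list and *Ikbkg* for *Rela*. The same 8 tumors without the block and the fit without Siah2 KO replicates 3 and 5 were chosen after seeing the data. The other experiments of the study were not analysed here.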

Additional observations from a re-analysis of the deposited data

How the results depend on the processing

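Over the 10 genes and the 3 measures, apart from leaving out single tumors, 337 values kept direction and side of the threshold, 30 changed sign, 19 lost and 9 gained a call. None of the changes of sign met *Tnfaip3*, *Nfkb2* or *Ikbkg*. On normalized counts *Tnfaip3* stayed called except with scaling to the 4 brightest positive controls (0.73, adjusted p = 0.15), where the standard error grew to 0.32, 0 of the 10 genes and 94 of 770 probes were called, and *Relb* stood at −0.0028, *Nfkb1* at −0.013, *Rela* at −0.082 and *Ikbkb* at −0.098. Median scaling gave *Chuk* −0.011, *Nfkbia* −0.025, *Rel* −0.10, *Relb* −0.11, *Nfkb1* −0.12, *Rela* −0.19 and *Ikbkb* −0.20, and quantile normalization gave *Nfkbia* −0.094, *Rel* −0.10, *Chuk* −0.12, *Relb* −0.16, *Rela* −0.23, *Nfkb1* −0.26, *Ikbkb* −0.31 and *Nfkb1* relative to *Rela* −0.027. With *Ikbkg* in place of *Rela* as the denominator, the change of *Ikbkg* is subtracted from each log2 ratio. *Chuk* then stood at −0.091, *Nfkbia* at −0.11, *Rel* at −0.18, *Relb* at −0.19 and *Nfkb1* at −0.20. The 2 genes called were *Tnfaip3* at 0.54 (adjusted p = 0.027, limma) and *Nfkb2* at −0.50 (adjusted p = 0.018). Among all probes 243 of 769 were called with this denominator. With the equal-variance test of the methods 3 genes were called relative to *Rela*, *Tnfaip3*, *Nfkb2* and *Ikbkg*. By that test 261 of 769 probes were called.

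Without Siah2 KO replicates 3 and 5 *Nfkbia* stood at −0.035, *Ikbkb* at −0.038, *Rela* at −0.071 and *Relb* at −0.10, and, relative to *Rela*, *Relb* at −0.034 and *Ikbkb* at 0.033, with 3 genes called. Relative to *Rela*, 260 of 769 probes were called without these tumors. Leaving out each tumor in turn, 1 to 3 of the 10 genes were called on normalized counts, 6 to 8 relative to leukocyte genes and 1 to 2 relative to *Rela*. Over all probes, the calls in these fits numbered 268 to 334, 359 to 422 and 235 to 290. *Rela* ranged from −0.013 to 0.12, *Ikbkb* from −0.0077 to 0.11, *Relb* from 0.056 to 0.30, *Rel* from 0.055 to 0.22, and, relative to *Rela*, *Rel* from −0.0032 to 0.18, *Relb* from 0.0055 to 0.19 and *Ikbkb* from −0.066 to 0.072. The replicate numbers were not taken as pairs, since deviations of same-numbered tumors correlated at 0.035, 0.050, 0.17 and 0.35, not all over 0.1, although 3 of 4 numbers matched best with their own, a hint of pairing from the data. With the replicate number as a block on 8 tumors, 1 gene was called on normalized counts, 5 relative to leukocyte genes and 1 relative to *Rela*, and the same 8 tumors without the block gave 1, 5 and 1. With the block 235 of 770, 343 of 770 and 203 of 769 probes were called, and without it 232, 318 and 202. The number of tumors limits what could be seen, and the cause of the other changes was not tested.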

Other observations

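For markers of other cells, the genes that limma called are counted as higher or lower in Siah2 KO than in WT tumors. Among all 770 probes 241 were higher, or 31.3%, and 75 were lower. Of 12 T cell genes, 7 were higher and 0 lower. Of 7 NK cell genes, 5 were higher and 0 lower. Of 7 B cell genes, 1 was higher and 0 lower. Of 6 dendritic cell genes, 2 were higher and 1 lower. Of 7 neutrophil genes, 2 were higher and 0 lower. Of 9 endothelial genes, 1 was higher and 3 lower. Of 6 fibroblast genes, 1 was higher and 5 lower, with a summed level of 29837 to 39455 normalized counts in WT and 18237 to 22954 in Siah2 KO tumors, opposite in direction to the 3 NF-kB genes called. Of the 20 reference genes, 2 were higher and 3 lower. Among the 6 NF-kB genes that textbooks give as targets of NF-kB itself, *Nfkb1*, *Nfkb2*, *Rel*, *Relb*, *Nfkbia* and *Tnfaip3*, 1 was higher, *Tnfaip3*, against 31.3% of all probes. Their median log2 fold change was 0.16, against 0.24 for all probes.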
